A study of Homo sapiens with 12 samples.

Results

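The cadherins and single-gene protocadherins, together with the clustered protocadherins, were described across wild-type and EXT1-knockdown HEK293 cells in adherent and suspension culture. Members were the protein-coding genes whose symbol is CDH followed by a number or starts with PCDH: 89 genes of the 19951 protein-coding genes and 58735 genes listed. They comprise 23 CDH genes, 13 single protocadherins and 53 clustered protocadherins, of which 15 belong to the alpha, 16 to the beta and 22 to the gamma cluster. HEK293 is an established human embryonic kidney line used to produce proteins and viral vectors, and the series concerns changes made to it to raise the output of biologics. EXT1 is one of the enzymes that build the heparan sulfate chains of cell-surface and matrix proteoglycans. The 4 groups of 3 poly-A RNA libraries were wild-type cells and EXT1-knockdown cells, each line once attached in T75 flasks in DMEM with fetal bovine serum and once suspended at 120 rpm in EX-CELL 293, a medium free of serum, all at 37 °C in 5% CO2. Cells were collected after 5 passages, the adherent ones with trypsin. The cultures thus differed in medium, serum, shaking, attachment and harvest together. The labels do not state the method of the EXT1 knockdown or whether that line is 1 clone. They also leave unsaid if the 3 libraries in each group had their own cultures, so a p-value measures the spread among the libraries sequenced, and this spread may be technical.

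Classical cadherins are single-pass membrane proteins whose outer repeats bind the same kind of molecule on a neighbouring cell in the presence of calcium, and whose tails bind catenins that link them to actin. Type I and type II classical cadherins differ in the pocket that holds the partner's first strand, and a cell's mix of them governs with which cells it sorts. Single protocadherins of the delta groups adhere more weakly and mostly act in the nervous system. The clustered protocadherins lie in 3 adjacent arrays in which each first exon has its own promoter, and in the alpha and gamma arrays every first exon is spliced to the same set of constant exons. In neurons a few first exons are switched on per cell, through CTCF, cohesin and DNA methylation.

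Libraries held 13.9 to 21.4 M reads assigned to genes. EXT1 read 53.2, 53.1 and 51.8 CPM (read counts scaled to a common library size after TMM) in attached wild-type cells and 12.5, 12 and 11.9 CPM in attached knockdown cells. Suspended cells gave EXT1 values of 49.5, 54.6 and 47.9 CPM for wild type and 15.4, 13.1 and 15.3 CPM for the knockdown, so every library stood on the side its label gives. The log2 fold change of EXT1 was -2.12 ± 0.089, edgeR adjusted p = 5.67e-12, in adherent culture and -1.80 ± 0.088, edgeR adjusted p = 4.77e-11, in suspension. The kidney and neural genes that HEK293 cells carry were present, with 6 of 6 listed markers detected and summed levels of 359.9 to 607 CPM, among them 107 ± 5.80 CPM of the neurofilament gene NEFL in wild-type adherent cells. Leukocyte markers summed to at most 2.06 CPM and hepatocyte markers to at most 0.449 CPM in any library.

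CDH2 (N-cadherin, the type I cadherin of neural and mesenchymal cells) was the main cadherin message of these cells in every group. Per length, it read 35.8, 39.1 and 35.1 FPKM in wild-type adherent libraries and 25.6, 28.5 and 27.1 FPKM in knockdown suspension libraries, its highest-but-one and lowest groups. It made up 76.5, 78.5 and 74.1% of the summed FPKM of the 18 classical cadherin genes in wild-type adherent libraries and 63.8, 65.4 and 65.5% in knockdown suspension libraries. CDH1 (E-cadherin, the type I cadherin of epithelia) made up 1.28, 1.70 and 1.68% and 9.53, 9.47 and 9.56% of that sum in the same groups. The FPKM of CDH2 was 59.5, 46.1 and 44 times that of CDH1 in wild-type adherent libraries and 41.0, 38.9 and 36.8 times in adherent knockdown libraries. In suspension the same ratio was 12, 14.2 and 11.6 in wild-type libraries and 6.70, 6.91 and 6.85 in knockdown libraries. The 4 groups did not overlap in this ratio, and each value is a description with no test of its own.

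Next to CDH2 stood PCDH7, a delta-1 protocadherin, with group means of 6.85 ± 0.152 to 21.4 ± 0.616 FPKM, and the gamma-cluster gene PCDHGC3, with 5.35 ± 0.0810 to 9.19 ± 0.294 FPKM (SD, n = 3). The order CDH2, PCDH7, PCDHGC3, CDH24 held in all 4 groups, although in wild-type suspension cells PCDH7 and PCDHGC3 were close, at 6.91, 6.96 and 6.67 against 6.30, 6.41 and 5.95 FPKM. The fifth place went to PCDH10 in 3 groups and to CDH1 in knockdown suspension cells, where CDH1 reached 3.96 ± 0.150 FPKM. A mean of at least 1 FPKM was reached by 9 members in attached wild-type cells, 11 in attached knockdown cells, 15 in suspended wild-type cells and 13 in suspended knockdown cells. CDH2 and PCDH7 together held 44.7% to 64.0% of the reads of all members in a library. FPKM of clustered genes divides by a length that includes exons shared within the cluster, so their place among the other genes is uncertain.

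**Figure D1:**
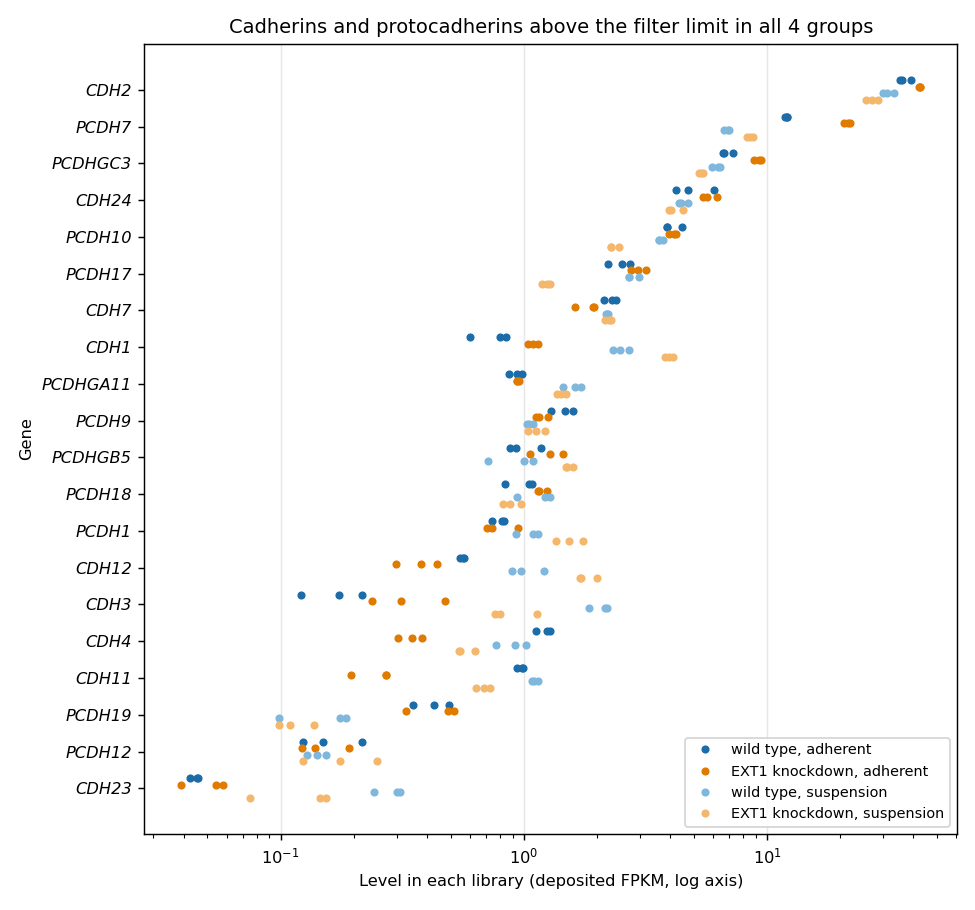
Deposited FPKM (log axis) of the 20 members that reached the filter limit of 0.586 CPM (before TMM) in every library of all 4 groups. Each point is 1 library and the colour gives the group. CDH2 lies to the right of all others, CDH1 and CDH12 move to the right in suspension, and CDH4 and CDH11 lie far to the left in adherent knockdown cells.

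Of the 89 members, 83 had at least 1 read and 37 passed the filter on low counts and were tested. These were 13 CDH genes, 10 single protocadherins and 14 clustered genes, 2 alpha, 1 beta and 11 gamma. Of the 37, 20 reached the filter limit of 0.586 CPM (here before TMM) in all 3 libraries of all 4 groups. A further 5 did so in 3 groups, 4 in 2 groups, 6 in 1 group and 2 in none. The 6 in 1 group are CDH20, CDH26, PCDHGA4, PCDHGA6, PCDHGA9 and PCDHGB6. The 17 that did not reach it in every library could pass through the groups where they were high, so counts over the tested members describe them and are no evidence about the family. Of the 52 members not tested, the 51 shown had at most 19 reads in a library and at most 81 over all libraries. Among them were CDH5 (VE-cadherin) of endothelium with 9 reads in all, CDH6 with 1, CDH15 (M-cadherin) of muscle with 35 and CDH17 of gut with 20.

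With EXT1 knocked down in adherent culture, 14 of 37 tested members passed an adjusted p of 0.05, against 27.1% of all 17115 genes tested. Of these, 8 were higher and 6 lower, where 15.2% and 11.8% of all genes were. In suspension the knockdown changed 20 members, 9 higher and 11 lower, against 20.9% of all genes, 8.29% higher and 12.6% lower. Without wild-type suspension replicate 2 or replicate 3, 2208 and 2380 of all genes passed in suspension, in place of 3577. The median log2 fold change over the 37 was 0.18 in adherent culture and -0.10 in suspension, beside -0.0075 and -0.0010 over all genes tested.

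Suspension against adherent culture changed 16 members in wild-type cells, 10 higher and 6 lower. Over all genes 55.7% passed in that comparison, 27.7% higher and 28.0% lower, beside 43.2% of the 37 members tested. In knockdown cells 28 of 37 changed with culture, 14 in each direction, against 55.7% of all genes, 26.8% higher and 29.0% lower. The knockdown effect itself differed between the cultures, tested as an interaction, for 19 members, against 24.0% of all genes. It was more positive in suspension for 6 of them and more negative for 13, beside 9.45% and 14.6% of all genes. The knockdown and culture comparisons share their libraries in pairs, and the values of each are given side by side. In what follows a value with ± is a log2 fold change or difference of log2 fold changes with its SE unless a unit is named, and where a call was lost without several libraries, each was left out alone.

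**Figure D2:**
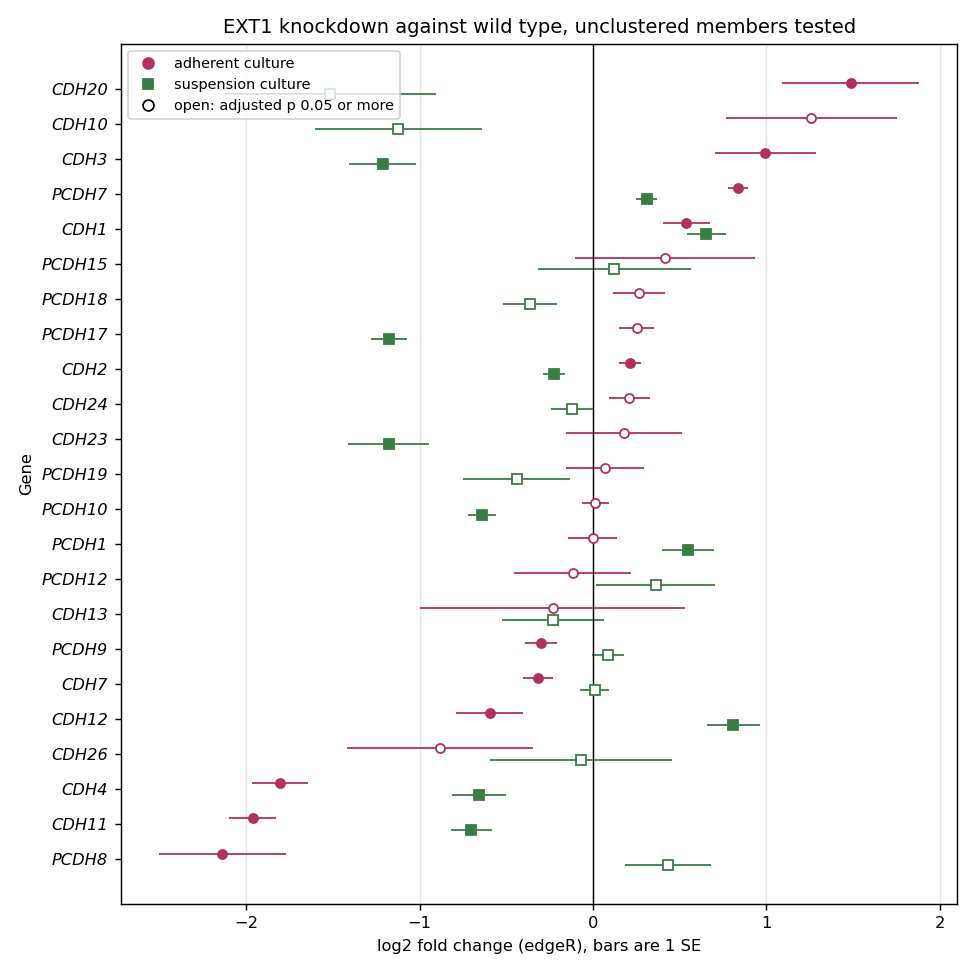
Log2 fold change of EXT1 knockdown against wild type for the 23 unclustered members tested, in adherent culture (circles) and suspension (squares), with bars of 1 SE; open symbols did not reach an adjusted p of 0.05. CDH4 and CDH11 are filled and to the left in both cultures, CDH1 and PCDH7 filled and to the right in both, and CDH3 and CDH12 fall on opposite sides.

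Among the type I cadherins, all 4 that were tested passed in every comparison of 2 groups, in different patterns, where 27.1% and 20.9% of all genes passed with the knockdown in adherent and suspension culture and 55.7% with culture in each line. CDH1 (ENSG00000039068, chromosome 16, 68737225 to 68835548, plus strand, GRCh38) read 3.76, 5.28 and 4.99 CPM in wild-type adherent libraries and 6.51, 6.80 and 7.18 CPM in adherent knockdown libraries. In suspension CDH1 read 15.6, 14.4 and 16.8 CPM for wild type and 24.0, 25.4 and 24.2 CPM for the knockdown. The 4 groups stand in steps with no overlap, from wild-type adherent up to knockdown suspension. On the log2 scale CDH1 was higher in suspension by 1.73 ± 0.13 (SE) in wild-type cells and 1.84 ± 0.12 in knockdown cells, with edgeR adjusted p-values of 1.72e-09 and 3.29e-10. The knockdown raised it by 0.54 ± 0.14, edgeR adjusted p = 0.00657, in adherent culture and by 0.65 ± 0.11, edgeR adjusted p = 4.06e-04, in suspension. The difference between those knockdown effects, 0.11 ± 0.18, did not pass (edgeR adjusted p = 0.683).

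CDH3 (P-cadherin, a type I cadherin of basal epithelia and placenta; ENSG00000062038, chromosome 16, 68636189 to 68722616, plus strand) lies beside CDH1 and followed another course. It read 1.09, 1.36 and 0.768 CPM in wild-type adherent libraries against 11.8, 13.5 and 13.8 CPM in wild-type suspension libraries, a log2 difference of 3.61 ± 0.24, edgeR adjusted p = 4.63e-10. Knockdown libraries read 1.5, 3.00 and 2.00 CPM attached and 4.82, 7.05 and 4.94 CPM in suspension, a smaller rise of 1.40 ± 0.23, edgeR adjusted p = 4.79e-05. Suspension libraries were above all adherent ones, with the wild-type suspension libraries highest. Knockdown cells were thus higher than wild type when attached (0.99 ± 0.29, edgeR adjusted p = 0.0162) and lower in suspension (-1.21 ± 0.19, edgeR adjusted p = 2.37e-04), and the knockdown effects differed by -2.21 ± 0.35, edgeR adjusted p = 1.78e-04. The adherent call was lost on log2(FPKM + 1) (0.19, adjusted p = 0.136) and without wild-type adherent replicate 3 (0.78, adjusted p = 0.0709) and knockdown adherent replicate 2 (0.71, adjusted p = 0.105).

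CDH4 (R-cadherin, first studied in retina; ENSG00000179242, chromosome 20, 61252426 to 61940617, plus strand) fell with the knockdown in both cultures. It read 9.22, 8.35 and 9.55 CPM for wild type and 2.59, 2.27 and 2.85 CPM for the knockdown among adherent libraries, a 3.49-fold difference (-1.80 ± 0.16, edgeR adjusted p = 2.98e-07). Suspension libraries gave 6.83, 7.49 and 5.67 CPM for wild type and 4.07, 4.01 and 4.60 CPM for the knockdown (-0.66 ± 0.16, edgeR adjusted p = 0.00575). Wild-type libraries were above knockdown libraries in each culture. The fall was smaller in suspension by 1.15 ± 0.23, edgeR adjusted p = 0.00128. With culture CDH4 went down in wild-type cells (-0.44 ± 0.14, edgeR adjusted p = 0.0153) and up in knockdown cells (0.71 ± 0.18, edgeR adjusted p = 0.00200), and the former call was lost without wild-type suspension replicate 3 (-0.34, adjusted p = 0.0840), and with the local chromosome median removed (-0.33, adjusted p = 0.0627).

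CDH2 (ENSG00000170558, chromosome 18, 27950966 to 28177446, minus strand) changed little by fold. It read 179, 195 and 176 CPM for wild type and 214, 212 and 212 CPM for the knockdown among adherent libraries. Among suspension libraries it stood at 151, 164 and 156 CPM for wild type and 129, 140.5 and 133 CPM for the knockdown. The groups did not overlap, and the highest and lowest both came from knockdown cells. The knockdown effect was 0.21 ± 0.063, edgeR adjusted p = 0.0172, in adherent culture and -0.22 ± 0.064, edgeR adjusted p = 0.0173, in suspension, and these differed by -0.44 ± 0.09, edgeR adjusted p = 0.00167. Among the 100 expressed genes nearest to CDH2 that are not members, the median change in adherent culture was 0.20. With the local chromosome median removed, the adherent change of CDH2 was 0.054, adjusted p = 0.612, and the interaction -0.27, adjusted p = 0.0517. The adherent call was also lost with no filter on low counts (0.20, adjusted p = 0.0903), when only the 2 groups were fitted (0.20, adjusted p = 0.0930), and without wild-type adherent replicate 1 and knockdown adherent replicates 1, 2 and 3 (0.20 to 0.21, adjusted p up to 0.0923). The suspension call was lost with no filter on low counts (-0.23, adjusted p = 0.0514) and without wild-type suspension replicates 2 and 3 and knockdown suspension replicates 1 and 3 (-0.23 to -0.18, adjusted p up to 0.112). Suspension culture changed CDH2 by -0.23 ± 0.063, edgeR adjusted p = 0.00531, in wild-type cells and -0.66 ± 0.064, edgeR adjusted p = 5.79e-08, in knockdown cells.

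Markers of epithelium other than cadherins moved between the groups too. The 9 listed genes, of which 7 were tested and none was at 0, summed to 364 to 437 CPM in wild-type adherent, 553 to 566 in knockdown adherent, 458 to 508 in wild-type suspension and 368 to 423 CPM in knockdown suspension libraries, with KRT7, ELF3 and ESRP1 under 1 CPM on average. EPCAM changed with the knockdown by 1.02 in adherent culture and -0.26 in suspension, and KRT19 by 1.11 and -2.62, all past the threshold. The sum was highest in adherent knockdown cells, whereas CDH1 was highest in knockdown suspension cells. Its part in the CDH1 and CDH3 results was not tested. In these bulk libraries, fewer cells of a kind and less RNA per cell cannot be told apart.

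Type II cadherins, of which 6 of 13 were tested, were lower with the knockdown in adherent culture for 3 genes (CDH7, CDH11 and CDH12) and higher for CDH20. Over all genes 11.8% were lower and 15.2% higher in that comparison. CDH11 (OB-cadherin, of mesenchyme and bone-forming cells; ENSG00000140937, chromosome 16, 64943753 to 65126112, minus strand) read 13.3, 13.5 and 12.7 CPM for wild type and 3.69, 2.63 and 3.71 CPM for the knockdown among adherent libraries. In suspension it read 14.6, 14.8 and 15.5 CPM for wild type and 8.68, 9.18 and 9.65 CPM for the knockdown. All 6 wild-type libraries were above all 6 knockdown libraries, and the adherent knockdown libraries were lowest. The fall was 3.89-fold in adherent culture (-1.96 ± 0.14, edgeR adjusted p = 5.91e-09) and 1.63-fold in suspension (-0.70 ± 0.12, edgeR adjusted p = 4.16e-04), and it was smaller in suspension by 1.26 ± 0.18, edgeR adjusted p = 7.29e-05. Between cultures CDH11 changed by 0.18 ± 0.11, edgeR adjusted p = 0.186, in wild-type cells and by 1.44 ± 0.14, edgeR adjusted p = 6.48e-08, in knockdown cells. The listed fibroblast markers summed to 19.5 to 22.9 CPM in wild-type adherent, 31.6 to 36.3 in knockdown adherent, 30.6 to 33.2 in wild-type suspension and 30.3 to 33.3 CPM in knockdown suspension libraries, with COL1A2, DCN, PDGFRB and THY1 under 1 CPM on average, and their part in the CDH11 result was not tested.

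CDH12 (a brain type II cadherin; ENSG00000154162, chromosome 5, 21750673 to 22853622, minus strand) read 3.28, 3.41 and 3.36 CPM for wild type and 1.79, 2.63 and 2.28 CPM for the knockdown among adherent libraries. Suspension libraries gave 5.38, 7.20 and 5.80 CPM for wild type and 10.3, 11.9 and 10.1 CPM for the knockdown. Knockdown libraries were thus lowest when attached and highest in suspension. The culture rise was 0.87 ± 0.17, edgeR adjusted p = 2.37e-04, in wild-type and 2.28 ± 0.18, edgeR adjusted p = 2.96e-09, in knockdown cells. The knockdown effect was -0.60 ± 0.19, edgeR adjusted p = 0.0279, in adherent culture and 0.81 ± 0.15, edgeR adjusted p = 0.00105, in suspension, and the difference between them 1.41 ± 0.25, edgeR adjusted p = 4.37e-04. The adherent call was lost when only the 2 groups were fitted (-0.60, adjusted p = 0.0726), on log2(FPKM + 1) (-0.19, adjusted p = 0.0847) and with the local chromosome median removed (-0.48, adjusted p = 0.0940), and without knockdown adherent replicate 1 (-0.46, adjusted p = 0.146) and knockdown adherent replicate 3 (-0.63, adjusted p = 0.0643).

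CDH7 (ENSG00000081138, chromosome 18, 65750252 to 65890341, plus strand), a type II cadherin of the developing nervous system, read 35.1, 33.8 and 31.4 CPM in wild-type adherent and 28.2, 28.4 and 23.9 CPM in knockdown adherent libraries, with 32.2, 32.1 and 32.3 CPM for wild type and 31.8, 33.0 and 32.5 CPM for the knockdown among suspension libraries. The adherent knockdown libraries stood below the other 9. The difference was -0.32 ± 0.084, edgeR adjusted p = 0.00875, in adherent culture, and between cultures in knockdown cells 0.27 ± 0.085, edgeR adjusted p = 0.00973. Both calls were lost without knockdown adherent replicate 3, at -0.24, adjusted p = 0.0763 and 0.23, adjusted p = 0.0533. CDH24 (ENSG00000139880, chromosome 14, 23047062 to 23057538, minus strand), a further type II cadherin, read 18.0, 15.9 and 23.0 CPM for wild type and 20.7, 21.4 and 23.8 CPM for the knockdown among adherent libraries and 16.5, 17.8 and 16.7 CPM for wild type and 17.3, 15 and 14.7 CPM for the knockdown in suspension. Its only call was a fall in suspension in knockdown cells (-0.49 ± 0.12, edgeR adjusted p = 0.00214). The 100 neighbouring genes had a median of -0.40 there, and with the local median removed CDH24 read -0.11, adjusted p = 0.494.

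At lower levels, the type II cadherin CDH20 ranged over 0.528 to 0.738 CPM for wild type and 1.71 to 2.05 CPM for the knockdown among adherent libraries, and over 0.276 to 0.672 CPM for wild type and 0 to 0.339 CPM for the knockdown in suspension. The adherent knockdown libraries were above all others, 2.80-fold over wild type (1.49 ± 0.40, edgeR adjusted p = 0.00889). CDH20 reached the filter limit in every library of a group only there, where it is high. Its calls that involve this group therefore describe this gene only. From 90 reads in adherent to 9 in suspension knockdown libraries its fall was 10.1 (95% counting interval 5.08 to 22.8) times (-3.28 ± 0.51, edgeR adjusted p = 2.00e-05), and the knockdown effects differed by -3.00 ± 0.72, edgeR adjusted p = 0.00540. CDH10, a brain cadherin, ranged over 0.121 to 0.288 CPM for wild type and 0.512 to 0.634 CPM for the knockdown among adherent libraries and 0.410 to 0.898 CPM for wild type and 0.182 to 0.407 CPM for the knockdown in suspension. It rose in suspension in wild-type cells by 2.65 (95% counting interval 1.35 to 5.52) times (1.39 ± 0.48, edgeR adjusted p = 0.0198), and its knockdown effects differed by -2.38 ± 0.69, edgeR adjusted p = 0.0167. The CDH10 culture call was lost with DESeq2 (1.44, adjusted p = 0.0563) and with no filter on low counts (1.41, adjusted p = 0.0548), and without wild-type adherent replicate 1 (1.12, adjusted p = 0.0830) and wild-type suspension replicate 3 (1.10, adjusted p = 0.107), and the interaction without wild-type suspension replicate 3 (-2.09, adjusted p = 0.0560).

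**Figure D3:**
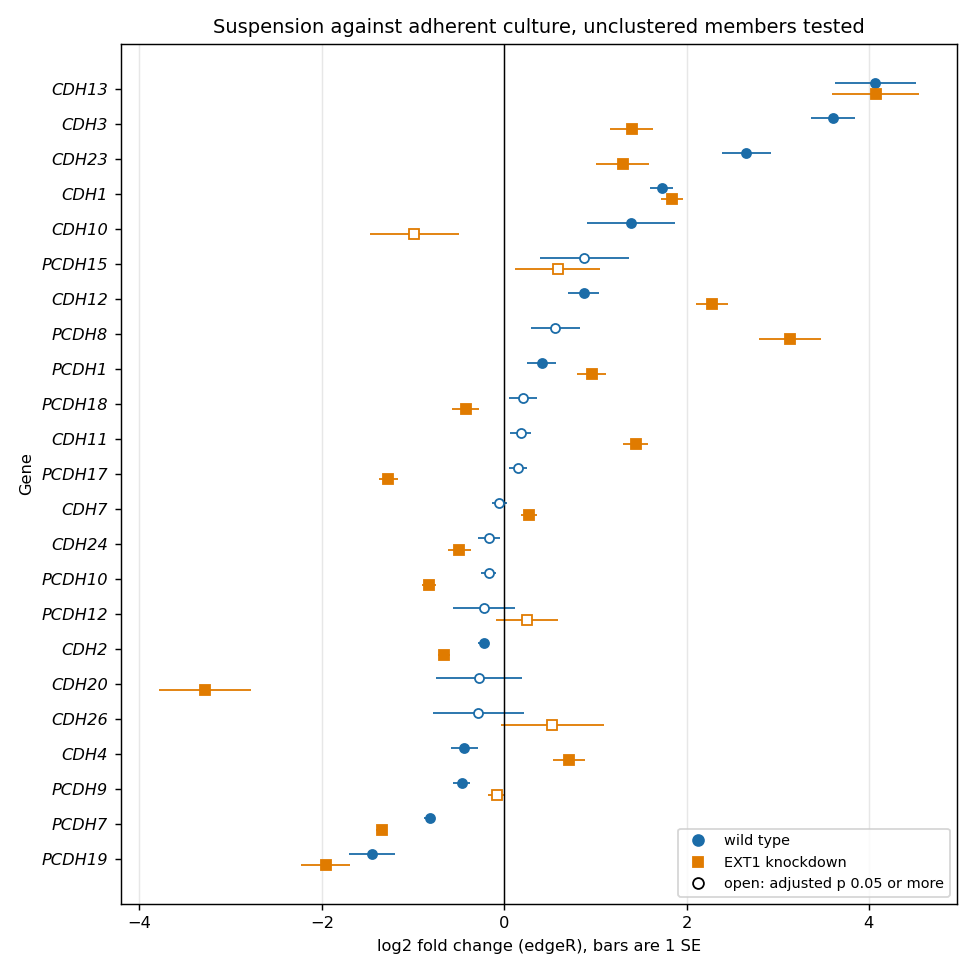
Log2 fold change of suspension against adherent culture for the 23 unclustered members tested, in wild-type cells (circles) and knockdown cells (squares), with bars of 1 SE; open symbols did not reach an adjusted p of 0.05. CDH13, CDH3, CDH23 and CDH1 are filled and to the right in both lines, PCDH7 and PCDH19 filled and to the left in both.

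Of the 3 other CDH genes tested, CDH13 and CDH23 rose in suspension in both lines. Over all genes 27.7% rose in wild-type and 26.8% in knockdown cells. CDH13 (T-cadherin, which is held by a lipid anchor in place of a membrane span and binds adiponectin; ENSG00000140945, chromosome 16, 82626803 to 83800640, plus strand) had 8 reads in the 3 wild-type and 6 in the 3 knockdown adherent libraries, against 128 and 107 in suspension. Per library it ranged over 0.0480 to 0.341 and 0.0731 to 0.171 CPM in adherent and 2.07 to 2.81 CPM for wild type and 1.85 to 2.51 CPM for the knockdown among suspension libraries. All suspension libraries were above all adherent ones. The ratio of summed reads per library size was 17.8 (95% counting interval 8.76 to 42.1) in wild-type (4.07 ± 0.44, edgeR adjusted p = 3.08e-07) and 17.7 (95% counting interval 7.86 to 49.2) in knockdown cells (4.07 ± 0.48, edgeR adjusted p = 7.77e-07). CDH13 reached the filter limit in every library of a group only in the suspension groups, where it is high, so its culture calls describe this gene only. Neither knockdown comparison passed (edgeR adjusted p = 0.859 and 0.633). The 7 listed endothelial markers, of which 5 averaged under 1 CPM and none was at 0, summed to 11.3 to 19.2 CPM in wild-type adherent, 21.0 to 24.6 in knockdown adherent, 33.9 to 35.5 in wild-type suspension and 31.6 to 37.8 CPM in knockdown suspension libraries. Their part in the CDH13 result was not tested.

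CDH23 (a long cadherin that forms hair-cell tip links in the inner ear; ENSG00000107736, chromosome 10, 71396934 to 71815947, plus strand) read 0.849, 0.795 and 0.864 CPM for wild type and 1.09, 1.02 and 0.741 CPM for the knockdown among adherent libraries. Among suspension libraries it stood at 5.66, 4.51 and 5.80 CPM for wild type and 1.42, 2.86 and 2.69 CPM for the knockdown. Wild-type suspension libraries were highest, and both adherent groups overlapped. The rise in suspension was 2.66 ± 0.27, edgeR adjusted p = 1.18e-07, in wild-type and 1.30 ± 0.29, edgeR adjusted p = 8.38e-04, in knockdown cells, and the knockdown changed it in suspension by -1.18 ± 0.23, edgeR adjusted p = 0.00155. The knockdown effects differed by -1.36 ± 0.41, edgeR adjusted p = 0.0213, a call lost without knockdown adherent replicate 1 (-1.22, adjusted p = 0.0763) and knockdown adherent replicate 2 (-1.29, adjusted p = 0.0517). The rise in knockdown cells did not pass on log2(FPKM + 1) (0.098, adjusted p = 0.0583). Of its exonic bases 18.9% overlap C10orf105 on the other strand, which had 1 read in all 12 libraries. CDH13 shares 21.4% of its exonic bases with a gene on the other strand, and CDH1, CDH2, CDH3, CDH12, PCDH7 and PCDH17 share 3.58% to 12.4%. Since the strand setting of the counting is not given in the sources used here, reads from either strand there cannot be told apart. CDH26 was tested and passed in no comparison.

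Delta-1 protocadherins were led by PCDH7 (ENSG00000169851, chromosome 4, 30720415 to 31146805, plus strand), a protocadherin of neural and other tissues with a long extracellular part. It read 149.6, 147 and 149.6 CPM for wild type and 268, 271 and 258 CPM for the knockdown among adherent libraries. In suspension it read 85.8, 85.1 and 82.3 CPM for wild type and 103, 107 and 104 CPM for the knockdown. Libraries of a group lay close together and no groups overlapped, with the adherent knockdown libraries highest and the wild-type suspension libraries lowest. The knockdown raised PCDH7 by 0.84 ± 0.057, edgeR adjusted p = 5.54e-09, in adherent culture and by 0.31 ± 0.059, edgeR adjusted p = 0.00108, in suspension, and the effects differed by -0.53 ± 0.082, edgeR adjusted p = 1.50e-04. The genes around it had a median change of 0.31 with the knockdown in adherent culture, and with that removed PCDH7 read 0.54, adjusted p = 2.23e-06. Suspension changed it by -0.82 ± 0.059, edgeR adjusted p = 1.25e-09, in wild-type and by -1.34 ± 0.058, edgeR adjusted p = 1.14e-12, in knockdown cells.

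PCDH9 (ENSG00000184226, chromosome 13, 66302834 to 67230445, minus strand), a brain protocadherin, read 46.2, 49.8 and 40.4 CPM for wild type and 35.0, 36.1 and 39.7 CPM for the knockdown among adherent libraries. Suspension libraries gave 32.9, 33.6 and 32.1 CPM for wild type and 38.5, 32.0 and 34.5 CPM for the knockdown. Wild-type adherent libraries were the highest group. The differences were -0.30 ± 0.091, edgeR adjusted p = 0.0201, for the knockdown in adherent culture and -0.47 ± 0.092, edgeR adjusted p = 2.63e-04, for culture in wild-type cells. The knockdown call was lost when only the 2 groups were fitted (-0.31, adjusted p = 0.0527), on log2(FPKM + 1) (-0.17, adjusted p = 0.0786) and on log2(FPKM + 0.1) (-0.28, adjusted p = 0.118), and without wild-type adherent replicates 1 and 2 and knockdown adherent replicates 1 and 2 (-0.29 to -0.23, adjusted p up to 0.0866). The interaction of PCDH9 (0.39 ± 0.13, edgeR adjusted p = 0.0372) was lost with no filter on low counts (0.39, adjusted p = 0.0529), on log2(FPKM + 1) (0.22, adjusted p = 0.111) and on log2(FPKM + 0.1) (0.36, adjusted p = 0.156), and without wild-type adherent replicates 1 and 2, knockdown adherent replicates 1 and 2, wild-type suspension replicates 1, 2 and 3 and knockdown suspension replicates 1 and 3 (0.32 to 0.40, adjusted p up to 0.0869).

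PCDH1 (ENSG00000156453, chromosome 5, 141853111 to 141879246, minus strand), a protocadherin of airway and other epithelia, read 4.85, 4.94 and 4.42 CPM for wild type and 4.21, 5.63 and 4.45 CPM for the knockdown among adherent libraries, which overlap. Among suspension libraries it stood at 6.83, 6.44 and 5.53 CPM for wild type and 8.14, 9.06 and 10.3 CPM for the knockdown, the highest group. It was higher in suspension by 0.41 ± 0.16, edgeR adjusted p = 0.0336, in wild-type and by 0.96 ± 0.16, edgeR adjusted p = 3.39e-05, in knockdown cells, and the knockdown raised it in suspension by 0.55 ± 0.15, edgeR adjusted p = 0.0137. The wild-type culture call was lost with no filter on low counts (0.42, adjusted p = 0.0623) and on log2(FPKM + 0.1) (0.37, adjusted p = 0.0548) and without wild-type adherent replicates 1 and 3 and wild-type suspension replicates 1 and 2 (0.34 to 0.43, adjusted p up to 0.129), and the knockdown call without wild-type suspension replicate 3 (0.47, adjusted p = 0.0734) and knockdown suspension replicate 3 (0.45, adjusted p = 0.0737). The difference between its knockdown effects did not pass (adjusted p = 0.0794).

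All 5 delta-2 protocadherins were tested, and all 5 changed with culture in knockdown cells, 4 lower and PCDH8 higher, where only PCDH19 passed in wild-type cells. Over all genes 55.7% changed with culture in each line. The interaction passed for PCDH8, PCDH10, PCDH17 and PCDH18, a test that 24.0% of all genes passed. PCDH17 (ENSG00000118946, chromosome 13, 57631810 to 57729311, plus strand), which acts at synapses, read 18.6, 22.9 and 21.4 CPM for wild type and 23.2, 24.8 and 26.9 CPM for the knockdown among adherent libraries. In suspension it read 22.8, 22.5 and 24.9 CPM for wild type and 10.9, 10.3 and 9.82 CPM for the knockdown. The knockdown suspension libraries stood alone, 2.26-fold below wild type (-1.18 ± 0.11, edgeR adjusted p = 4.07e-07), while the adherent difference of 0.25 ± 0.098, edgeR adjusted p = 0.0652, did not pass. The effects differed by -1.43 ± 0.14, edgeR adjusted p = 1.30e-06, and the 100 neighbouring genes had a median difference of -0.25.

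PCDH10 (ENSG00000138650, chromosome 4, 133149315 to 133208606, plus strand), a brain protocadherin often methylated in tumours, was also lowest in suspended knockdown cells. It read 39.9, 45.8 and 40.1 CPM for wild type and 43.4, 40.6 and 42.8 CPM for the knockdown among adherent libraries and 37.0, 37.9 and 36.7 CPM in wild-type suspension libraries, against 23.5, 23.1 and 25 CPM in knockdown suspension libraries. The last group was lowest, the wild-type suspension libraries lay just below the adherent ones, and the adherent groups overlapped. The knockdown effect was 0.014 ± 0.078, edgeR adjusted p = 0.922, in adherent culture and -0.64 ± 0.081, edgeR adjusted p = 2.21e-05, in suspension, a difference of -0.65 ± 0.11, edgeR adjusted p = 3.74e-04. Between cultures PCDH10 changed by -0.82 ± 0.081, edgeR adjusted p = 7.57e-08, in knockdown cells, while -0.17 ± 0.078, edgeR adjusted p = 0.0709, in wild-type cells did not pass.

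PCDH18 (ENSG00000189184, chromosome 4, 137518918 to 137532494, minus strand), another neural protocadherin, read 7.28, 7.10 and 5.67 CPM for wild type and 7.84, 8.41 and 7.81 CPM for the knockdown among adherent libraries. Suspension libraries gave 6.33, 8.14 and 8.64 CPM for wild type and 5.97, 6.51 and 5.44 CPM for the knockdown. The knockdown groups did not overlap with each other, and the suspension groups did. It changed between cultures in knockdown cells by -0.42 ± 0.15, edgeR adjusted p = 0.0242, and its knockdown effects differed by -0.63 ± 0.21, edgeR adjusted p = 0.0389. The former call was lost in 9 of 23 alternative fits, among them those without knockdown adherent replicates 1, 2 and 3 and knockdown suspension replicates 1 and 3 (-0.41 to -0.36, adjusted p up to 0.0961). The latter was lost in 14 of 22, among them those without wild-type adherent replicate 3, knockdown adherent replicates 1, 2 and 3, wild-type suspension replicates 2 and 3 and knockdown suspension replicates 1 and 3 (-0.64 to -0.52, adjusted p up to 0.108).

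PCDH8 (ENSG00000136099, chromosome 13, 52842889 to 52848641, minus strand), which takes cadherins off the synaptic membrane in rat neurons, had 71 reads in wild-type and 14 in knockdown adherent libraries. It ranged over 1.14 to 1.39 and 0.219 to 0.399 CPM there, and over 1.70 to 2.14 CPM for wild type and 2.07 to 3.14 CPM for the knockdown among suspension libraries. Adherent knockdown libraries were far below the rest. The fall was 4.49 (95% counting interval 2.51 to 8.62) times in adherent culture (-2.14 ± 0.37, edgeR adjusted p = 2.88e-04), the suspension difference of 0.43 ± 0.25, edgeR adjusted p = 0.228, did not pass, and the effects differed by 2.57 ± 0.44, edgeR adjusted p = 3.87e-04. From attached to suspended knockdown cells PCDH8 rose 8.99 (95% counting interval 5.17 to 16.9) times (3.13 ± 0.34, edgeR adjusted p = 2.46e-07). PCDH19 (ENSG00000165194, chromosome X, 100291644 to 100410273, minus strand), the protocadherin mutated in an X-linked epilepsy, ranged over 3.46 to 4.83 and 3.23 to 5.13 CPM in adherent and 0.967 to 1.81 CPM for wild type and 0.954 to 1.34 CPM for the knockdown among suspension libraries, wild type first. All adherent libraries were above all suspension libraries, 2.73-fold in wild-type (-1.45 ± 0.25, edgeR adjusted p = 8.75e-05) and 3.88-fold in knockdown cells (-1.96 ± 0.27, edgeR adjusted p = 5.33e-06). PCDH12 and PCDH15 were tested and passed in no comparison, and PCDH11X and PCDH20 were not tested.

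**Figure D4:**
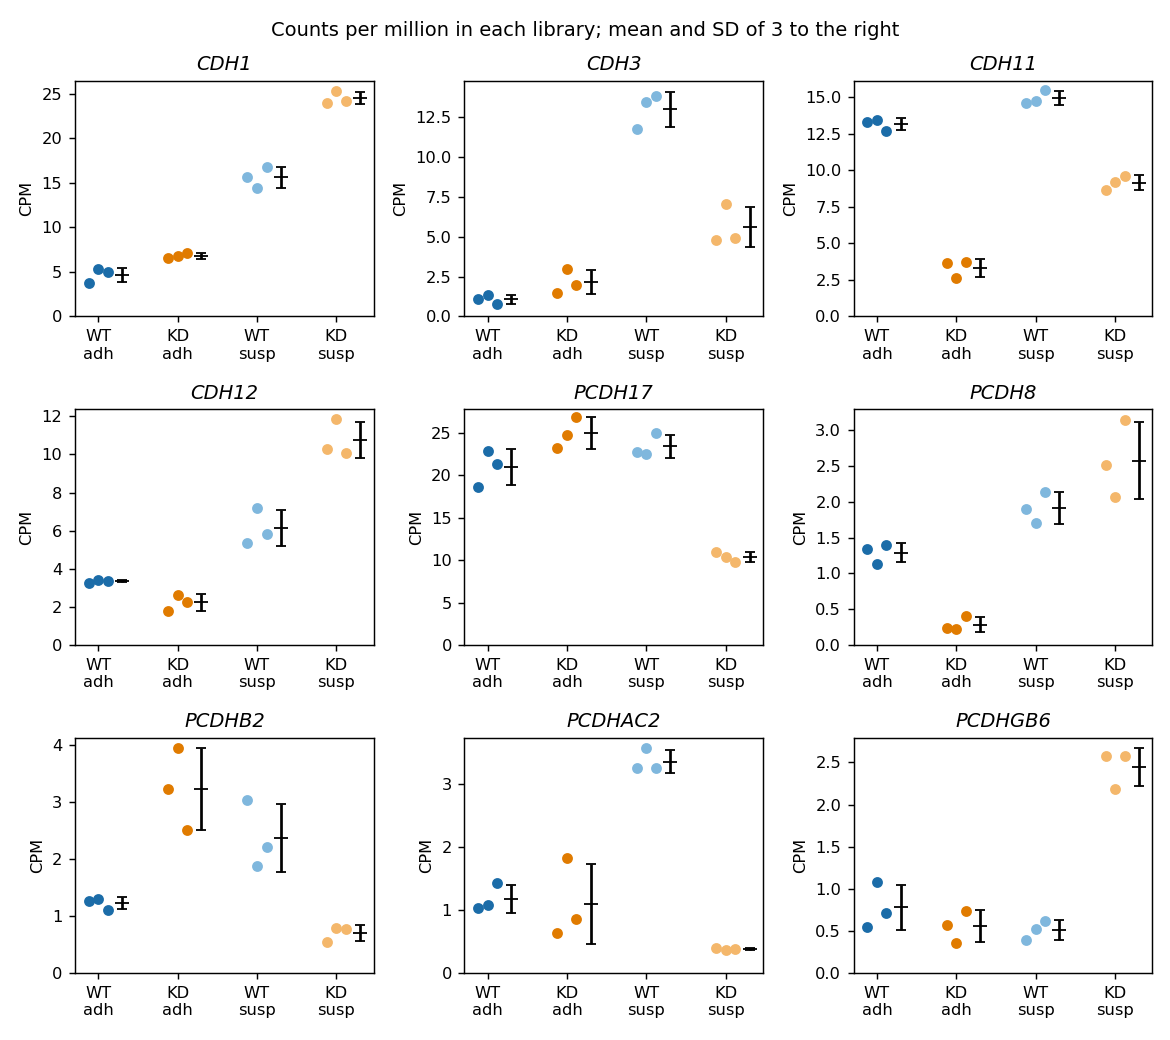
CPM of 9 members in each of the 12 libraries (points), with the mean and SD of the 3 libraries of a group to their right; each panel has its own axis from 0. CDH1 steps up from left to right, CDH11 is low in both knockdown groups, PCDH17 and PCDHAC2 are low in knockdown suspension cells, PCDH8 in adherent knockdown cells, and PCDHGB6 is high only in knockdown suspension cells.

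The clustered protocadherins lie on chromosome 5 (GRCh38), the alpha genes from 140786136 to 141012347, the beta genes from 141051135 to 141249365 and the gamma genes from 141330571 to 141512981. In the deposited annotation 14 of 15 alpha genes end at the same base, 141012344, and 21 of 22 gamma genes at 141512979, where the shared constant exons lie. In GENCODE release 44, 2869 exonic bases are shared between most alpha genes and 2177 between most gamma genes. The share of a gene's exonic bases that another gene also covers was 21.4% to 99.9% (median 49.5%) for alpha, 27.5% to 64.4% (median 43.8%) for gamma and 0% to 43.9% for beta genes. How reads in shared exons were assigned is not given in the sources used here, so the split of reads among the genes of an array is uncertain. That release matched 88 members, and 16 had the same start and end as in the deposited tables.

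Each first exon of these arrays has its own promoter, and the 7 shown are those of the clustered members that carried most reads or the largest changes. The windows are the 250 bases before the RefSeq start (GRCh38.p14), 5′ to 3′. Capitals mark TGNCGCT, letters of a conserved element known before many clustered promoters. Only exact matches were searched, on both strands. It was chosen with these promoters in view. An entry was found for 69 of 88 members looked up.
PCDHA10 (chr5:140855647-140855896, plus strand): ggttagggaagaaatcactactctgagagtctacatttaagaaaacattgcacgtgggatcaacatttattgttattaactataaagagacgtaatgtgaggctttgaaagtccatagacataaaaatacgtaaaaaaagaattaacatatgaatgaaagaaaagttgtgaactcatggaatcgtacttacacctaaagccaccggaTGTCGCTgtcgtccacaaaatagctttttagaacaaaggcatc
PCDHAC2 (chr5:140966226-140966475, plus strand): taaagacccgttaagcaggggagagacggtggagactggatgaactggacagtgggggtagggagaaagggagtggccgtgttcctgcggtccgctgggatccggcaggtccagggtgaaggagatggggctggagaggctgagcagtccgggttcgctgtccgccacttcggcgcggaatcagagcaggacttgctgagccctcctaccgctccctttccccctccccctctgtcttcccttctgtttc
PCDHB2 (chr5:141094365-141094614, plus strand): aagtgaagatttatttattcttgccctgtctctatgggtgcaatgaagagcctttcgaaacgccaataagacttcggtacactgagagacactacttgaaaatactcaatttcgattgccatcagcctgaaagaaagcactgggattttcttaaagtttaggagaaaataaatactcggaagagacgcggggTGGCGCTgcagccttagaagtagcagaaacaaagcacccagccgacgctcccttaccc
PCDHGB5 (chr5:141397697-141397946, plus strand): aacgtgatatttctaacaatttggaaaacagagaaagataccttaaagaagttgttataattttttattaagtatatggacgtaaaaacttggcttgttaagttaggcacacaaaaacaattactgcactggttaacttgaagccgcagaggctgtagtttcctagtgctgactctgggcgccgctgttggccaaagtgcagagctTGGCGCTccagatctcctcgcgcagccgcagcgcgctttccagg
PCDHGB6 (chr5:141407771-141408020, plus strand): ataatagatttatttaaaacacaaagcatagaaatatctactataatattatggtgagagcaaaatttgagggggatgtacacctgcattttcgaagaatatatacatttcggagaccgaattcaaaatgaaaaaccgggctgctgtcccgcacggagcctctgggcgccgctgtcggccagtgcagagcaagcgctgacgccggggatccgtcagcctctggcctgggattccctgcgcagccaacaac
PCDHGA11 (chr5:141420801-141421050, plus strand): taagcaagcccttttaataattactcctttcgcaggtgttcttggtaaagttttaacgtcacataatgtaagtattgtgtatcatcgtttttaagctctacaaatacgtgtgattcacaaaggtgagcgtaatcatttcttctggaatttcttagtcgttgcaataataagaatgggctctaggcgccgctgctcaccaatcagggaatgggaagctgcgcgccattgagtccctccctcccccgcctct
PCDHGC3 (chr5:141475716-141475965, plus strand): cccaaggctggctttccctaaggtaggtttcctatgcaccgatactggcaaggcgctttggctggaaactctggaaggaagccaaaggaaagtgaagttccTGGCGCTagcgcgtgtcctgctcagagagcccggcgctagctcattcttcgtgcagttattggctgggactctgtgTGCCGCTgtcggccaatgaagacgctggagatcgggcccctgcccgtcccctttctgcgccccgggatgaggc

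The letters occur once before PCDHA10, PCDHB2 and PCDHGB5, at 43, 58 and 44 bases before the start, and 2 times before PCDHGC3, at 149 and 73 bases. They are not in the windows shown for PCDHAC2, PCDHGB6 and PCDHGA11 in this exact form. Near matches were not searched, so these windows are not shown to lack the element. Over the family, 76.9% of 13 alpha, 85.7% of 14 beta and 44% of 25 gamma windows hold them, against 22.9% of 35 windows of unclustered members and 8.36% of 35116 windows of all genes. A match is a description of the letters and was not tied to any of the changes below.

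The gamma array carried most of the clustered reads, 12007 over all libraries against 667 for alpha and 601 for beta. Gamma genes summed to 52.5, 55.5 and 57.1 CPM for wild type and 74.6, 68.5 and 71.7 CPM for the knockdown among adherent libraries, and to 54.4, 52.2 and 54.2 and 61.9, 57.4 and 55.1 CPM in suspension. Adherent knockdown libraries were highest. Alpha genes summed to 2.97, 3.12 and 3.65 and 2.42, 3.29 and 3.71 CPM in wild-type and knockdown adherent libraries, and to 5.77, 5.50 and 6.29 and 1.36, 0.608 and 0.954 CPM in suspension. Beta genes summed to 2.49, 2.38 and 2.06 and 4.78, 6.21 and 4.05 CPM, and 4.26, 2.63 and 3.80 and 0.746, 1.52 and 1.35 CPM, in the same order. Alpha and beta sums were both lowest in knockdown suspension cells, whereas the gamma sum was not. A few genes made up each sum: PCDHAC2 held 45.3% of alpha, PCDHB2 62.2% of beta and PCDHGC3 63.7% of gamma reads, and 4 genes held 92.8%, 80.9% and 87.2%. These sums carry no test. The 100 expressed genes nearest to PCDHB2 had a median log2 change of -0.14 with the knockdown in adherent culture and 0.076 in suspension.

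**Figure D5:**
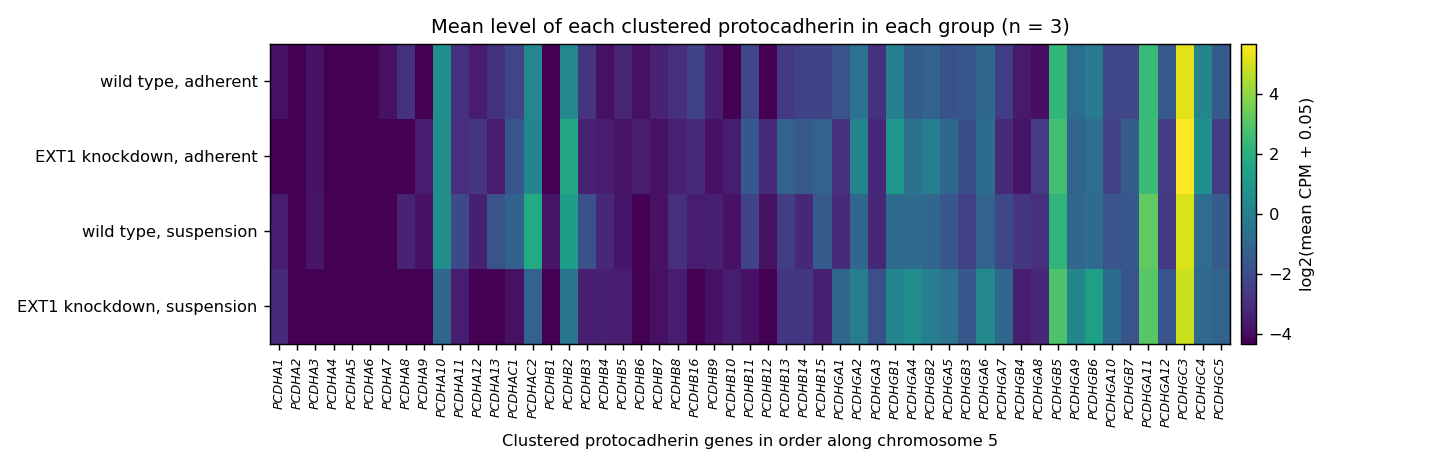
Mean CPM of the 53 clustered protocadherins in each group, as log2(mean CPM + 0.05), with genes in order along chromosome 5. PCDHGC3, PCDHGA11 and PCDHGB5 are bright in all 4 groups, most alpha and beta genes are dark, and in knockdown suspension cells PCDHA10, PCDHAC2 and PCDHB2 are darker and PCDHGB6 brighter than in the other groups.

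Only 2 of 15 alpha genes were tested, PCDHA10 and PCDHAC2. Both fell with the knockdown in suspension, where 12.6% of all genes were lower, and did not pass in adherent culture. PCDHAC2 (ENSG00000243232, chromosome 5, 140966235 to 141012344, plus strand), one of the C-type genes that neurons express more broadly, had 166 reads in wild-type and 19 in knockdown suspension libraries. It ranged over 1.03 to 1.44 CPM for wild type and 0.634 to 1.83 CPM for the knockdown in adherent and over 3.25 to 3.57 CPM for wild type and 0.365 to 0.407 CPM for the knockdown among suspension libraries. Wild-type suspension libraries were highest and knockdown suspension libraries lowest, 8.67 (95% counting interval 5.38 to 14.8) times apart (-3.09 ± 0.36, edgeR adjusted p = 7.62e-06). The knockdown effects differed by -2.93 ± 0.51, edgeR adjusted p = 3.82e-04, and culture moved PCDHAC2 by 1.49 ± 0.29, edgeR adjusted p = 2.51e-04, in wild-type and -1.45 ± 0.42, edgeR adjusted p = 0.00611, in knockdown cells. The last call was lost on log2(FPKM + 1) (-0.14, adjusted p = 0.0516) and without knockdown adherent replicate 2 (-0.90, adjusted p = 0.0721). PCDHA10 (ENSG00000250120, chromosome 5, 140855883 to 141012344, plus strand) ranged over 1.48 to 1.63, 1.02 to 2.00 and 1.11 to 2.07 CPM in the other groups and 0.243 to 0.814 CPM in knockdown suspension libraries, 3.34 (95% counting interval 2.05 to 5.64) times below wild type (-1.72 ± 0.41, edgeR adjusted p = 0.00605). The culture change in knockdown cells was -1.72 ± 0.41, edgeR adjusted p = 0.00161. Its interaction (-1.69 ± 0.54, edgeR adjusted p = 0.0282) was lost on log2(FPKM + 1) (-0.088, adjusted p = 0.272) and on log2(FPKM + 0.1) (-0.57, adjusted p = 0.144), and without knockdown adherent replicate 3 (-1.41, adjusted p = 0.0868), wild-type suspension replicate 3 (-1.43, adjusted p = 0.0843), knockdown suspension replicate 2 (-1.39, adjusted p = 0.0857) and knockdown suspension replicate 3 (-1.50, adjusted p = 0.0753). Its suspension knockdown call was lost on log2(FPKM + 1) (-0.094, adjusted p = 0.109) and its culture call on log2(FPKM + 1) (-0.089, adjusted p = 0.0682).

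PCDHB2 (ENSG00000112852, chromosome 5, 141094578 to 141098703, plus strand), the only beta gene tested, was higher with the knockdown in adherent culture and lower in suspension. It ranged over 1.10 to 1.31 CPM for wild type and 2.51 to 3.95 CPM for the knockdown among adherent libraries, and over 1.87 to 3.02 CPM for wild type and 0.543 to 0.791 CPM for the knockdown in suspension. Neither pair overlaps. The knockdown effect was 1.38 ± 0.26, edgeR adjusted p = 6.36e-04, in adherent culture and -1.73 ± 0.30, edgeR adjusted p = 4.72e-04, in suspension, where wild type had 3.34 (95% counting interval 2.28 to 5.03) times the reads. The effects differed by -3.11 ± 0.40, edgeR adjusted p = 1.95e-05. Between cultures it changed by 0.95 ± 0.27, edgeR adjusted p = 0.00531, in wild-type cells, a call lost without wild-type suspension replicate 1 (0.73, adjusted p = 0.0508), and by -2.16 ± 0.29, edgeR adjusted p = 3.88e-06, in knockdown cells. Of its exonic bases 43.9% overlap an antisense gene in GENCODE release 44.

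PCDHGC3 (ENSG00000240184, chromosome 5, 141475947 to 141512979, plus strand), the most broadly expressed gamma gene, read 36.6, 36.0 and 39.9 CPM for wild type and 52.0, 48.7 and 51.1 CPM for the knockdown among adherent libraries. Among suspension libraries it stood at 34.7, 34.8 and 32.5 CPM for wild type and 29.2, 29.4 and 28.9 CPM for the knockdown. The adherent knockdown libraries were highest and the knockdown suspension libraries lowest. The knockdown effect was 0.43 ± 0.074, edgeR adjusted p = 2.97e-04, in adherent culture, and the effects differed by -0.65 ± 0.11, edgeR adjusted p = 2.37e-04. The suspension effect of -0.22 ± 0.077, edgeR adjusted p = 0.0459, was lost in 16 of 23 alternative fits, among them those without wild-type adherent replicate 1, knockdown adherent replicates 1, 2 and 3, wild-type suspension replicates 1, 2 and 3 and knockdown suspension replicates 1, 2 and 3 (-0.25 to -0.21, adjusted p up to 0.147). Between cultures PCDHGC3 changed in knockdown cells by -0.79 ± 0.075, edgeR adjusted p = 4.83e-08. As a share of gamma reads it was 69.7, 64.9 and 70.0% in wild-type adherent, 69.7, 71.1 and 71.3% in knockdown adherent, 63.7, 66.7 and 60.1% in wild-type suspension and 47.1, 51.3 and 52.4% in knockdown suspension libraries. The other 21 gamma genes summed to 19.8, 17.4 and 21.6 CPM for wild type and 32.8, 28.0 and 26.3 CPM for the knockdown among suspension libraries.

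The gamma genes that rose with the knockdown in suspension were 5 of 11 tested: PCDHGA4, PCDHGA9, PCDHGB1, PCDHGB5 and PCDHGB6, where 8.29% of all genes were higher. PCDHGA4, PCDHGA9 and PCDHGB6 reached the filter limit in all 3 libraries of a group only in knockdown suspension cells. They are high in that group, so this count describes the tested genes only. The same holds for each of their calls against that group, with the knockdown or with culture. PCDHGB5 (ENSG00000276547, chromosome 5, 141397987 to 141512979, plus strand) read 4.55, 5.73 and 4.32 CPM for wild type and 7.09, 5.19 and 6.33 CPM for the knockdown among adherent libraries, and 4.93, 3.45 and 5.32 CPM for wild type and 7.87, 7.24 and 7.24 CPM for the knockdown in suspension. Knockdown suspension libraries were the highest group (0.71 ± 0.18, edgeR adjusted p = 0.00818), a call lost without wild-type suspension replicate 2 (0.54, adjusted p = 0.0615). PCDHGB6 (ENSG00000253305, chromosome 5, 141408021 to 141512979, plus strand) ranged over 0.546 to 1.08, 0.366 to 0.741 and 0.392 to 0.622 CPM in wild-type adherent, knockdown adherent and wild-type suspension libraries. In knockdown suspension libraries it ranged over 2.19 to 2.58 CPM, above all 9 others. It had 4.84 (95% counting interval 3.13 to 7.77) times the reads of wild type (2.25 ± 0.34, edgeR adjusted p = 1.22e-04), the knockdown effects differed by 2.70 ± 0.51, edgeR adjusted p = 8.26e-04, and the culture change in knockdown cells was 2.08 ± 0.33, edgeR adjusted p = 2.68e-05.

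Smaller counts lie behind the other 3. PCDHGB1 ranged over 0.864 to 0.971 CPM for wild type and 1.24 to 2.30 CPM for the knockdown in adherent and 0.392 to 0.644 CPM for wild type and 0.785 to 1.29 CPM for the knockdown among suspension libraries. The knockdown was higher in both cultures, by 0.99 ± 0.31, edgeR adjusted p = 0.0244, and by 1.09 ± 0.37, edgeR adjusted p = 0.0442. The adherent call was lost with DESeq2 (0.98, adjusted p = 0.0540) and without wild-type adherent replicates 1 and 3 and knockdown adherent replicates 1 and 3 (0.78 to 1.01, adjusted p up to 0.143), and the suspension call in 14 of 23 alternative fits, among them those without wild-type adherent replicate 1, knockdown adherent replicates 1 and 3, wild-type suspension replicates 1, 2 and 3 and knockdown suspension replicates 1 and 2 (0.93 to 1.31, adjusted p up to 0.155). Its change between cultures in knockdown cells (-0.76 ± 0.31, edgeR adjusted p = 0.0433), the only call in which the libraries of both groups overlap, was lost in 12 of 23, among them those without knockdown adherent replicates 1 and 3, wild-type suspension replicate 3 and knockdown suspension replicates 1, 2 and 3 (-0.85 to -0.53, adjusted p up to 0.231). PCDHGA4 and PCDHGA9 ranged over 0.410 to 0.560 and 0.234 to 0.616 CPM in wild-type and 0.841 to 1.89 and 0.898 to 1.56 CPM in knockdown suspension libraries. Their summed reads per library size rose 2.78 (95% counting interval 1.74 to 4.59) and 2.47 (95% counting interval 1.48 to 4.27) times, with adjusted p-values of 0.0410 and 0.0415. The PCDHGA4 call was lost with limma-voom (1.36, adjusted p = 0.0916) and with the local chromosome median removed (1.42, adjusted p = 0.0679), and without wild-type suspension replicates 1, 2 and 3 and knockdown suspension replicates 1 and 2 (1.21 to 1.56, adjusted p up to 0.166). The PCDHGA9 call was lost with DESeq2 (1.34, adjusted p = 0.0701) and with the local chromosome median removed (1.25, adjusted p = 0.0699), and without wild-type adherent replicate 1, knockdown adherent replicate 2, wild-type suspension replicates 2 and 3 and knockdown suspension replicates 1, 2 and 3 (0.99 to 1.45, adjusted p up to 0.187). PCDHGA4 and PCDHGA9 reached the filter limit in every library of a group only in knockdown suspension cells, so calls against that group are descriptions. Both were also higher in suspension than attached in knockdown cells, by 1.19 ± 0.48, edgeR adjusted p = 0.0422, and by 1.42 ± 0.45, edgeR adjusted p = 0.0117. For PCDHGA4 this was lost with limma-voom (1.09, adjusted p = 0.0909) and with the local chromosome median removed (1.08, adjusted p = 0.0690), and without knockdown adherent replicates 1, 2 and 3, wild-type suspension replicates 1, 2 and 3 and knockdown suspension replicates 1 and 2 (0.93 to 1.40, adjusted p up to 0.176). For PCDHGA9 it was lost without knockdown adherent replicate 1 and knockdown suspension replicate 1 (1.17 to 1.23, adjusted p up to 0.0566).

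PCDHGA11 (ENSG00000253873, chromosome 5, 141421047 to 141512979, plus strand) responded to culture and not detectably to the knockdown. It read 5.10, 5.51 and 5.76 CPM for wild type and 5.53, 5.63 and 5.53 CPM for the knockdown in adherent and 9.52, 8.43 and 10.1 CPM for wild type and 8.41, 7.91 and 8.64 CPM for the knockdown among suspension libraries. All suspension libraries were above all adherent ones, by 0.77 ± 0.13, edgeR adjusted p = 5.04e-05, in wild-type and 0.58 ± 0.13, edgeR adjusted p = 9.63e-04, in knockdown cells. The knockdown differences were 0.025 ± 0.14 and -0.17 ± 0.13. PCDHGC4 went the other way, from 0.965 to 1.20 CPM for wild type and 1.39 to 1.79 CPM for the knockdown in adherent to 0.293 to 0.760 CPM for wild type and 0.224 to 0.730 CPM for the knockdown among suspension libraries, 2.11 (95% counting interval 1.31 to 3.48) and 3.24 (95% counting interval 2.02 to 5.35) times lower (-1.06 ± 0.40, edgeR adjusted p = 0.0293, and -1.67 ± 0.39, edgeR adjusted p = 0.00121). The wild-type call was lost with DESeq2 (-1.06, adjusted p = 0.0511) and with the local chromosome median removed (-0.94, adjusted p = 0.0509), and without wild-type adherent replicates 1 and 3 and wild-type suspension replicates 1 and 2 (-1.10 to -0.76, adjusted p up to 0.147). PCDHGC4 reached the filter limit in every library of a group only in the adherent groups, where it is high, so its culture calls describe this gene only. PCDHGA2, PCDHGA6 and PCDHGB2 passed in no comparison.

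Genes that work with cadherins were read from lists chosen with earlier results known. Over all genes, 15.2% rose and 11.8% fell with the knockdown in adherent culture, 8.29% and 12.6% in suspension, 27.7% and 28.0% with culture in wild-type cells and 26.8% and 29.0% in knockdown cells, and the counts of each list stand against these shares. Of 11 catenin and plaque genes tested, 3 rose and 1 fell with the knockdown in adherent culture, 1 rose and 1 fell in suspension, and with culture 3 rose and 3 fell in wild-type and 3 rose and 4 fell in knockdown cells. That is 4 and 2 of 11 with the knockdown, where 27.1% and 20.9% of all genes passed, and 6 and 7 of 11 with culture, where 55.7% did. CTNNB1 (beta-catenin, which binds the tails of classical cadherins) averaged 391 ± 9.48, 419.6 ± 10.1, 278 ± 6.62 and 267 ± 15.3 CPM in wild-type adherent, knockdown adherent, wild-type suspension and knockdown suspension cells (SD, n = 3). It changed in suspension by -0.49 ± 0.061, edgeR adjusted p = 1.72e-06, in wild-type and -0.65 ± 0.061, edgeR adjusted p = 4.23e-08, in knockdown cells. CTNNA1 (alpha-catenin, the link to actin) passed in no comparison, with group means of 328 ± 1.33 to 355 ± 37.7 CPM. CTNND1 (p120-catenin, which holds cadherins at the membrane) was higher with the knockdown in adherent culture by 0.31 ± 0.067, edgeR adjusted p = 0.00196, and its knockdown effects differed by -0.46 ± 0.095, edgeR adjusted p = 0.00193. ARVCF, a p120 relative, rose in suspension by 1.20 in wild-type cells, JUP (plakoglobin) fell by 0.71, and CTNND2 (a neural catenin) changed by -3.06 with the knockdown in suspension, from a low 1.26 ± 0.431 CPM.

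Among other adhesion genes, NECTIN4, an epithelial nectin, rose in suspension by 3.87 ± 0.18, edgeR adjusted p = 3.81e-12, in wild-type and 3.67 ± 0.22, edgeR adjusted p = 1.03e-10, in knockdown cells and was lower with the knockdown in both cultures (-0.93 and -1.13). Of 4 nectins tested, 1 rose and 1 fell with the knockdown in adherent culture, 2 fell in suspension, and with culture 1 rose and 1 fell in wild-type and 1 rose and 2 fell in knockdown cells, beside 27.1% and 20.9% of all genes for the knockdown and 55.7% for culture. Of 4 desmosomal genes tested, 3 were higher with the knockdown in adherent culture, DSC2 most (0.63), where 15.2% of all genes were, and in suspension, where 20.9% of all genes passed, the 4 differed by -0.18 to 0.0037, with the smallest edgeR adjusted p at 0.179. With culture 2 rose and 2 fell in wild-type and 3 fell in knockdown cells, against 55.7% of all genes. Of 16 further cadherin-superfamily genes tested, 6 rose and 1 fell with the knockdown in adherent culture and 2 rose and 3 fell in suspension, and with culture 8 rose and 2 fell in wild-type and 4 rose and 4 fell in knockdown cells. The background is 27.1%, 20.9% and, for culture in each line, 55.7% of all genes, and the culture counts lie near it. DCHS1, the partner of FAT4 in planar cell polarity, changed with the knockdown by 0.87 in adherent culture and -1.12 in suspension, and CLSTN2, a synaptic calsyntenin, by -0.53 and 0.73, all past the threshold.

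Of 9 repressors of cadherin genes tested, SNAI1 was lower with the knockdown in adherent culture (-1.16 ± 0.29, edgeR adjusted p = 0.00597) and in wild-type suspension cells (-1.66 ± 0.31, edgeR adjusted p = 1.39e-04), and SNAI2 was lower with the knockdown in suspension (-1.33 ± 0.31, edgeR adjusted p = 0.00460). In all, 1 rose and 3 fell with the knockdown in each culture, and none rose with culture, with 5 lower in wild-type and 3 in knockdown cells. Over all genes 11.8% and 12.6% were lower with the knockdown and 28.0% and 29.0% with culture. Of 10 genes for shedding and cleavage of cadherins, 2 rose with the knockdown in adherent culture, ADAM9 most (0.52), and 1 fell in suspension, against 27.1% and 20.9% of all genes. With culture 4 rose and 2 fell in wild-type and 4 rose and 4 fell in knockdown cells, against 55.7%. Of 14 regulators of the clustered arrays, 9 were lower in suspension in each line and 1 was higher in wild-type and 2 in knockdown cells, beside 28.0% and 29.0% lower over all genes. CTCF, which binds the array promoters and enhancers, fell by 0.70 and 0.72 on the log2 scale. With the knockdown 3 regulators rose and 4 fell in adherent culture, and 2 rose and 1 fell in suspension, where 27.1% and 20.9% of all genes passed. The suspension count is near that share. SMC1A, a cohesin subunit, fell with the knockdown in both cultures, by 0.27 and 0.41. CTCF differed by 0.042 ± 0.068 and 0.022 ± 0.071 with the knockdown and did not pass.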

How the data were processed

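RNA of HEK293 cells was measured in 12 libraries, in 4 groups of 3 taken from the sample titles. The authors deposited whole-number counts per gene and FPKM values per gene, each in 1 table of all libraries. Reads were mapped to GRCh38 with HISAT2 and assigned to genes with featureCounts 1.5.0, per the submitters' processing notes; neither source gives the aligner version, annotation release, strand setting or handling of shared exons, and the labels' protocol names both a directional and a non-directional library. Replicates were not pooled, and no library was a copy of another: the chi-square of counts per degree of freedom between libraries of a group was 2.57 to 25.8.

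From the deposited counts, edgeR 4.0.16 (R 4.3.3) with TMM scaling, its filter on low counts by group and group means as the design was run on the 12 libraries together (8 residual degrees of freedom). The quasi-likelihood F-test was applied to 5 contrasts with Benjamini-Hochberg adjustment over 17115 genes at 0.05. Depth was 13.9 to 21.4 M reads per library. CPM are scaled by TMM; levels between genes use the deposited FPKM. An SE is the log2 fold change over the square root of F. Where a library held few reads, the ratio of summed reads is given with an exact binomial 95% interval, which covers counting error only. Alternatives were no scaling, upper-quartile scaling, DESeq2 1.42.0, limma-voom 3.58.1, other filters, 2-group fits, a replicate block, log2(FPKM + 1) and log2(FPKM + 0.1) of the deposited FPKM (scales that understate changes of low genes), removal of the median change of the 100 nearest expressed genes, and leaving out each library. On simulated data for the adherent knockdown comparison over 17115 genes, 66% of 50 genes changed 1.5-fold, 66% of 50 changed 2-fold, 92% of 50 changed 3-fold and 90% of 50 changed 4-fold were recovered. The changed genes were drawn at random from all tested genes, not at the members' levels. They were a far smaller part than the 27.1% called in the real comparison, so these rates do not carry over to the members.

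Members and gene lists were chosen with earlier results of these data known. By rule, the members called in a comparison are named, with all library values where a group mean reached 5 CPM and group ranges otherwise; partner genes are named for CTNNB1, CTNNA1, CTNND1 and the larger changes past the threshold. The promoter motif was chosen after the promoters had been seen. Promoter sequences come from RefSeq and exon overlaps from GENCODE release 44. Levels of 1 untested member are not reported here.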

Additional observations from a re-analysis of the deposited data

Results flagged for a closer look

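For 19 members the effect of the EXT1 knockdown in suspension differed from that in adherent culture (edgeR interaction test, adjusted p under 0.05). That is 51.4% of the 37 tested, against 24.0% of all genes. Some of the 37 could pass the filter through the groups where they were high, so this share is no evidence about the family. The values below are the log2 effect in suspension minus that in adherent culture. Among CDH genes the difference was 1.26 for CDH11, 1.15 for CDH4 and 1.41 for CDH12, and it was negative for CDH3 (-2.21), CDH23 (-1.36), CDH20 (-3.00), CDH10 (-2.38) and CDH2 (-0.44). Single protocadherins gave 2.57 for PCDH8 and 0.39 for PCDH9, and negative values for PCDH17 (-1.43), PCDH10 (-0.65), PCDH18 (-0.63) and PCDH7 (-0.53). Clustered genes gave 2.70 for PCDHGB6, and -3.11 for PCDHB2, -2.93 for PCDHAC2, -1.69 for PCDHA10 and -0.65 for PCDHGC3. For CDH2, CDH3, CDH12, PCDHB2 and PCDHGC3 both single effects passed with opposite signs, and for CDH4, CDH11 and PCDH7 with the same sign. Among the opposite pairs, the suspension call was lost in 16 of 23 alternative fits for PCDHGC3 and in 5 for CDH2. The adherent call was lost in 7 for CDH2, 5 for CDH12 and 3 for CDH3. Both PCDHB2 calls were kept in all 23.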

How the results depend on the processing

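No called change of a member or of EXT1 reversed its sign under any of the 23 alternatives, and no count of called members moved by over 1.5 times. Of 100 called pairs of a gene and a comparison, 65 passed under every alternative in which they were tested and 35 were lost under at least 1, while 14 pairs not called passed under at least 1. Leaving out each library in turn gave 10 to 15 called members for the knockdown in adherent culture, 14 to 21 in suspension, 13 to 17 for culture in wild-type cells, 24 to 29 in knockdown cells and 15 to 21 for the interaction. Over all genes these fits called 3133 to 5089, 2208 to 4691, 8478 to 9644, 8433 to 10260 and 3142 to 5068, in that order. With a replicate block the member counts were 14, 17, 16, 27 and 19 in the same order, beside 4490, 3441, 9480, 9463 and 4019 of 17115 genes. The member calls lost with it were PCDHGC3, PCDHGB1, PCDHGA4 and PCDHGA9 for the knockdown in suspension and PCDHGB1 and PCDHGA4 for culture in knockdown cells. The samples share only a number: correlations of same-numbered libraries were -0.155 to 0.146 over 18 pairs, and 3 of 12 libraries correlated best with their own number. Over all genes, the adherent knockdown count of 4633 became 3067 when only the 2 groups were fitted and 3026 with the local chromosome median removed; with that median removed the suspension count of 3577 became 2145 and the interaction count of 4114 became 2360. Without scaling, the suspension knockdown split was 1931 higher and 1783 lower genes, beside 1419 and 2158. Upper-quartile scaling moved the median of all genes for culture in knockdown cells from -0.0076 to 0.11 and the split from 4579 higher and 4955 lower to 5736 and 3776. The cause of these moves was not tested. With no filter on low counts 83 members were tested, and the called members were 13, 21, 14, 33 and 20 in the order above, of which 13, 17, 14, 26 and 17 were among the main calls. Over all genes that fit called 4352, 3430, 9453, 9441 and 3791 of 36513 tested.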
